A study of Mus musculus with 12 samples.

Results

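The endoplasmic reticulum (ER) chaperones and folding factors described here are 10 genes, Hspa5, Hsp90b1, Pdia4, Pdia6, Calr, Sdf2l1, Creld2, Manf, Dnajb9 and Herpud1, taken by symbol from a table of 24421 genes. All 10 were found under 1 name each, and all 10 passed the filter on low counts that left 14443 genes for testing. The table holds RNA-seq read counts from livers of C57BL/6 mice aged 15 months, with 3 libraries in each of 4 groups. Tumours came from mice lacking Atg7, labelled Atg7KO, and so did the first set of non-tumour livers. The other tumours and non-tumour livers came from mice lacking both Atg7 and Hmgb1, with the genotype Atg7KO; Hmgb1KO in the labels and called DKO here. Loss of Atg7, which is needed to form autophagosomes, is therefore common to every library, and no liver with intact Atg7 was analysed here. The cell type in which either gene was deleted, and whether libraries came from separate animals, are not given in the sources used here, so p-values measure the spread between these libraries only.

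The ER is where secreted and membrane proteins fold, and the hepatocyte, which secretes most plasma proteins, depends heavily on it. When unfolded proteins build up, the sensors IRE1, PERK and ATF6 start the unfolded protein response. ATF6 and the IRE1 product XBP1 then raise the transcription of ER chaperones and degradation factors, many through a promoter element called the ER stress element, whereas PERK acts through ATF4 and CHOP on amino acid supply, redox and cell death. The 10 genes are known targets of the ATF6 and XBP1 side of that response, and the design asks whether their RNA differs between a tumour and non-tumour liver, and between the genotypes.

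The promoters of these genes are shown first because the ER stress element is a known route to many ER chaperone genes; not every promoter of the set held a match. The ER stress element (ERSE) was searched as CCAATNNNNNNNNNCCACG, its variant ERSE-II as ATTGGNCCACG and the unfolded protein response element (UPRE) as TGACGTGG, on both strands, in RefSeq windows of GRCm38.p6 that run from 250 bases before to 50 bases after the transcript start. The RefSeq table held 9 of the 10 genes, Manf being the one named only. ERSE was found in 5 of the 9, in Hspa5, Hsp90b1, Pdia6, Calr and Creld2, against 0.119% of the 32851 promoters in the table, which is 39 promoters of 37 genes. ERSE-II was found in 1 of the 9, Herpud1, against 0.0365% of all promoters, and UPRE in 0 of the 9 against 0.676%. Within the set no match overlapped another. The set was made of known targets of this response, so a share of matches above that of all promoters is a description and no test. These are matches of letters, and a window without a match says nothing about which factors bind there. Each match is printed in the direction of the motif, with the fixed letters of the motif in capitals and its distance from the start.
Hspa5 ERSE, 65 bases before the start, chromosome 2: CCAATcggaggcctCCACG
Hsp90b1 ERSE, 212 bases before the start, chromosome 10: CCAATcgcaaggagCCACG
Hsp90b1 ERSE on the opposite strand, 107 bases before the start, chromosome 10: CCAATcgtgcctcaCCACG
Pdia6 ERSE, 98 bases before the start, chromosome 12: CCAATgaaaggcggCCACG
Calr ERSE on the opposite strand, 162 bases before the start, chromosome 8: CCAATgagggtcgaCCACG
Creld2 ERSE on the opposite strand, 126 bases before the start, chromosome 15: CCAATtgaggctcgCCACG
Herpud1 ERSE-II, 52 bases before the start, chromosome 8: ATTGGgCCACG

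The 250 bases before the start are given for Hspa5, whose match lies nearest the start among the 6 ERSE matches, for Hsp90b1, the only promoter of the 9 with a pair of elements, and for Herpud1, which carries the variant. Capitals mark the fixed letters of each element, and the second element of Hsp90b1 reads as its reverse complement because it lies on the opposite strand.
Hspa5, chr2:34771840-34772089, plus strand: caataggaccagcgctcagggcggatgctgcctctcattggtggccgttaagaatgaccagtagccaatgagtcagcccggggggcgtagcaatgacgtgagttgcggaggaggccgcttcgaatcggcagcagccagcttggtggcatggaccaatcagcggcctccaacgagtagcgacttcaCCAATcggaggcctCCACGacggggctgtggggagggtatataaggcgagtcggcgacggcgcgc
Hsp90b1, chr10:86705445-86705694, minus strand: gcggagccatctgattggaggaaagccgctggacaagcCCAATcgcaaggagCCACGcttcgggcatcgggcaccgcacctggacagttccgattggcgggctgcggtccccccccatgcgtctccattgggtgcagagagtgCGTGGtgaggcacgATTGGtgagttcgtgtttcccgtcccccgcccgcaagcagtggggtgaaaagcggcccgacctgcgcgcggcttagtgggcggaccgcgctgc
Herpud1, chr8:94386179-94386428, plus strand: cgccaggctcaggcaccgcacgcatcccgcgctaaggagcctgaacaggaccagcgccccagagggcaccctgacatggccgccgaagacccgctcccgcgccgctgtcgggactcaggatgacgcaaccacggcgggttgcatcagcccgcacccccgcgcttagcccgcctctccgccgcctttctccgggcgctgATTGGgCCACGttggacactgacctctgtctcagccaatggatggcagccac

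**Figure D1:**
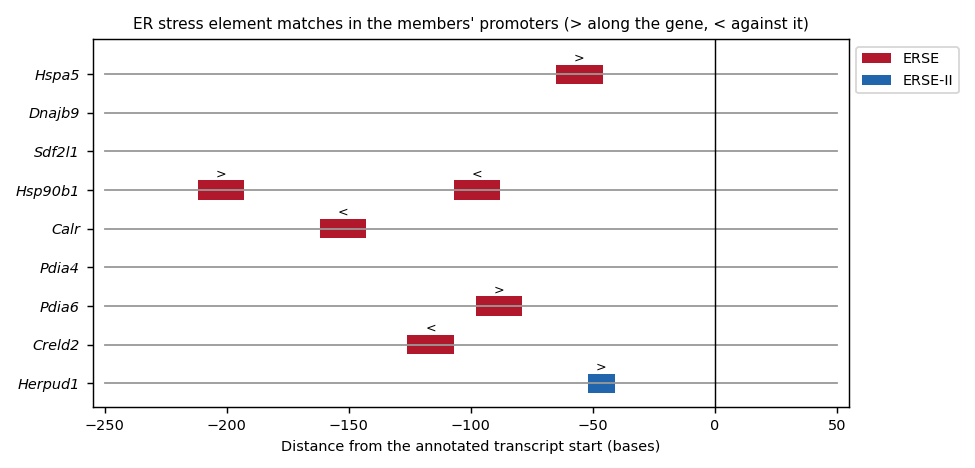
Position of each match in the 9 promoters of the set held by the RefSeq table, in bases from the transcript start, with ERSE in red, ERSE-II in blue and an arrowhead for the strand. The 6 ERSE matches lie between 65 and 212 bases before the start, the ERSE-II match of Herpud1 lies 52 bases before it, and Dnajb9, Sdf2l1 and Pdia4 show none.

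Library totals ran from 18292190 to 32354958 reads. The 4 Y-linked transcripts counted had 1898 to 4639 reads in the DKO libraries, against 0 to 2 reads in the Atg7KO libraries, while Xist had 0 to 2 reads in DKO and 1130 to 12216 reads in Atg7KO. Genotype and sex therefore cannot be told apart in any comparison of DKO with Atg7KO, nor in the difference between their tumour effects. The log2 fold changes of all genes tested followed gene length in every comparison, with Spearman's rho across genes between -0.47 and 0.57. The set has a median transcript length of 2034 bases, against 2862 bases for all genes tested, so values with a length offset are given beside the members that it moved most. Levels are CPM, read counts scaled to sequencing depth with TMM factors, and differences are log2 fold changes from edgeR with their standard error (SE). Reads of Atg7 and Hmgb1 were present in every library. Atg7 averaged 5.56 ± 2.61 CPM in Atg7KO tumours and 10.1 ± 2.70 CPM in Atg7KO non-tumour livers (SD, n = 3 each). In DKO it averaged 6.96 ± 3.40 CPM in tumours and 13.0 ± 4.13 CPM in non-tumour livers. Hmgb1 averaged 79.0 ± 16.3 CPM in DKO tumours, against 115 ± 20.4 CPM in Atg7KO tumours, and 101 ± 17.4 CPM in DKO non-tumour livers, against 118 ± 12.3 CPM in Atg7KO non-tumour livers. These counts cover whole genes, so they do not check the deletions. Hepatocyte markers (Alb, Apoa1 and 8 others) were above 0 in every library, with summed levels of 46018 to 109640 CPM in Atg7KO tumours, 74084 to 142999 CPM in Atg7KO non-tumour livers, 87551 to 117953 CPM in DKO tumours and 93692 to 203017 CPM in DKO non-tumour livers. The second Atg7KO tumour stood apart in its marker levels. Its 8 bile duct markers summed to 6586 CPM, against 370 to 1265 CPM in the other 11 libraries, and its hepatocyte sum of 46018 CPM and macrophage sum of 608 CPM were the lowest of the 12. Such a sum follows its most abundant genes, and Spp1 was the most abundant of the 8 bile duct markers per kilobase. The high sum is therefore no measure of the list as a whole. Of these 8 bile duct markers, 4 lay lower in all 3 Atg7KO tumours, this one included, than in every Atg7KO non-tumour library. A separation in that direction was seen for 11.9% of all genes tested.

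All 10 genes were well expressed. On a scale of CPM per kilobase of transcript, averaged over the 12 libraries, Calr was the highest at 377 ± 88.8 (SD, n = 12), above 98.6% of the genes tested. Calr encodes calreticulin, the lectin chaperone that holds newly made glycoproteins. Hsp90b1, the ER form of HSP90 known as GRP94, followed at 279 ± 59.0 CPM per kilobase, and Hspa5, the ER HSP70 known as BiP, at 260 ± 78.2 CPM per kilobase. Calr stood above Hsp90b1 in 11 of 12 libraries, but Hsp90b1 stood above Hspa5 in only 8 of 12, so the order of Hsp90b1 and Hspa5 was not kept across libraries. Herpud1, which brings misfolded proteins to the ubiquitin ligase of ER-associated degradation, averaged 180 ± 47.0 CPM per kilobase and was below Hspa5 in 11 of 12 libraries. The protein disulfide isomerases Pdia4, at 97.1 ± 16.9, and Pdia6, at 96.7 ± 10.9 CPM per kilobase, could not be ordered, with Pdia4 higher in 7 of 12 libraries. Dnajb9, the J-domain co-chaperone of BiP known as ERdj4, averaged 46.2 ± 11.8 CPM per kilobase. Manf, a secreted ER factor that binds BiP, averaged 42.2 ± 10.2 CPM per kilobase and was below Dnajb9 in 7 of 12 libraries. Creld2, an ER protein with disulfide isomerase activity, stood at 24.3 ± 5.48 CPM per kilobase, and Sdf2l1, which works with ER J-domain proteins, was the lowest at 21.4 ± 7.79 CPM per kilobase, still above 79.6% of the genes tested.

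In tumours of Atg7KO livers the set did not move as a block. No member was called by edgeR (adjusted p under 0.05), against a background of 0% of all genes tested, where 2423 genes had an unadjusted p under 0.05 and DESeq2 called 611. Without the second Atg7KO non-tumour library edgeR called 3 genes, 0 of them members. Of the 10 members 4 had a log2 fold change above 0 and 6 below 0, with a median of -0.06, beside -0.00 for all genes tested. Dnajb9 (NM_013760, mm10 chromosome 12, 44205897 to 44210068, minus strand) was the only member whose libraries separated between the tissues. It had 106, 108 and 139 CPM in Atg7KO tumours, against 78.4, 68.6 and 80.0 CPM in Atg7KO non-tumour livers, so every tumour library was above every non-tumour library. The log2 fold change was 0.64 (SE 0.18, 95% interval 0.24 to 1.04), with an unadjusted p of 0.00473 and an adjusted p of 0.167 by edgeR. DESeq2 gave a fold of 0.65 on the log2 scale with an adjusted p of 0.0324, the single call on any member under any setting, and with a length offset edgeR gave 0.57 with an adjusted p of 0.206. A separation of all 3 libraries in the upward direction was seen for 11.6% of all genes tested, and in the downward direction for 11.9%, against 1 and 0 of the 10 members. An unadjusted p under 0.05 by edgeR was seen for 16.8% of all genes tested and for 1 of the 10 members. Neither share of the members was above that of all genes.

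The main chaperones gave the opposite sign, without separation. Hspa5 had 564, 511 and 739 CPM in Atg7KO tumours, against 502, 790 and 653 CPM in Atg7KO non-tumour livers, and the groups overlapped throughout (log2 fold change -0.10, SE 0.33, 95% interval -0.82 to 0.62, adjusted p = 0.902 by edgeR). Hsp90b1 had 628, 473 and 709 CPM in the tumours and 613, 942 and 815 CPM in the non-tumour livers. Its log2 fold change was -0.39 (SE 0.27, 95% interval -0.97 to 0.19, adjusted p = 0.485 by edgeR). Pdia4, which forms and reshuffles disulfide bonds, had 210, 132 and 247 CPM in the tumours and 221, 291 and 276 CPM in the non-tumour livers, for a log2 fold change of -0.42 (SE 0.24, adjusted p = 0.387 by edgeR). For Hsp90b1 and Pdia4 the second tumour library, the one with the high sum of bile duct markers, was the lowest of all 12 libraries. Without it the log2 fold change was -0.25 (adjusted p = 0.715 by edgeR) for Hsp90b1 and -0.21 (adjusted p = 0.674) for Pdia4, and the part of its marker levels in these values was not tested. Pdia6, which also acts on BiP and on the IRE1 sensor, had 203, 160 and 231 CPM in the tumours and 191, 228 and 227 CPM in the non-tumour livers, with a log2 fold change of -0.12 (SE 0.19), or 0.01 without that library.

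Calr had 865, 609 and 846 CPM in Atg7KO tumours, against 590, 930 and 836 CPM in Atg7KO non-tumour livers, a log2 fold change of -0.02 (SE 0.30). Herpud1 had 327, 302 and 331 CPM in the tumours and 262, 497 and 346 CPM in the non-tumour livers (log2 fold change -0.20, SE 0.25, adjusted p = 0.717 by edgeR), and the wide spread was on the non-tumour side. The 3 low-level members lay slightly above 0. Sdf2l1 had 29.3, 15.4 and 31.2 CPM in the tumours and 14.7, 25.5 and 26.7 CPM in the non-tumour livers. Creld2 had 52.1, 24.0 and 34.7 CPM in the tumours and 29.3, 32.1 and 33.8 CPM in the non-tumour livers, so its tumours lay both above and below the others. Manf had 106, 87.3 and 99.7 CPM in the tumours and 82.6, 101 and 91.5 CPM in the non-tumour livers. Their log2 fold changes were 0.18 (SE 0.42), 0.22 (SE 0.27) and 0.09 (SE 0.30), in that order. Without the second tumour Creld2 gave 0.45 (adjusted p = 0.399 by edgeR), and with a length offset Sdf2l1 gave -0.05 and Creld2 0.05. For 8 of the 10 members the 95% interval lay within a 2-fold change either way, and the widest upper bound was a 2.14-fold rise, for Sdf2l1.

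**Figure D2:**
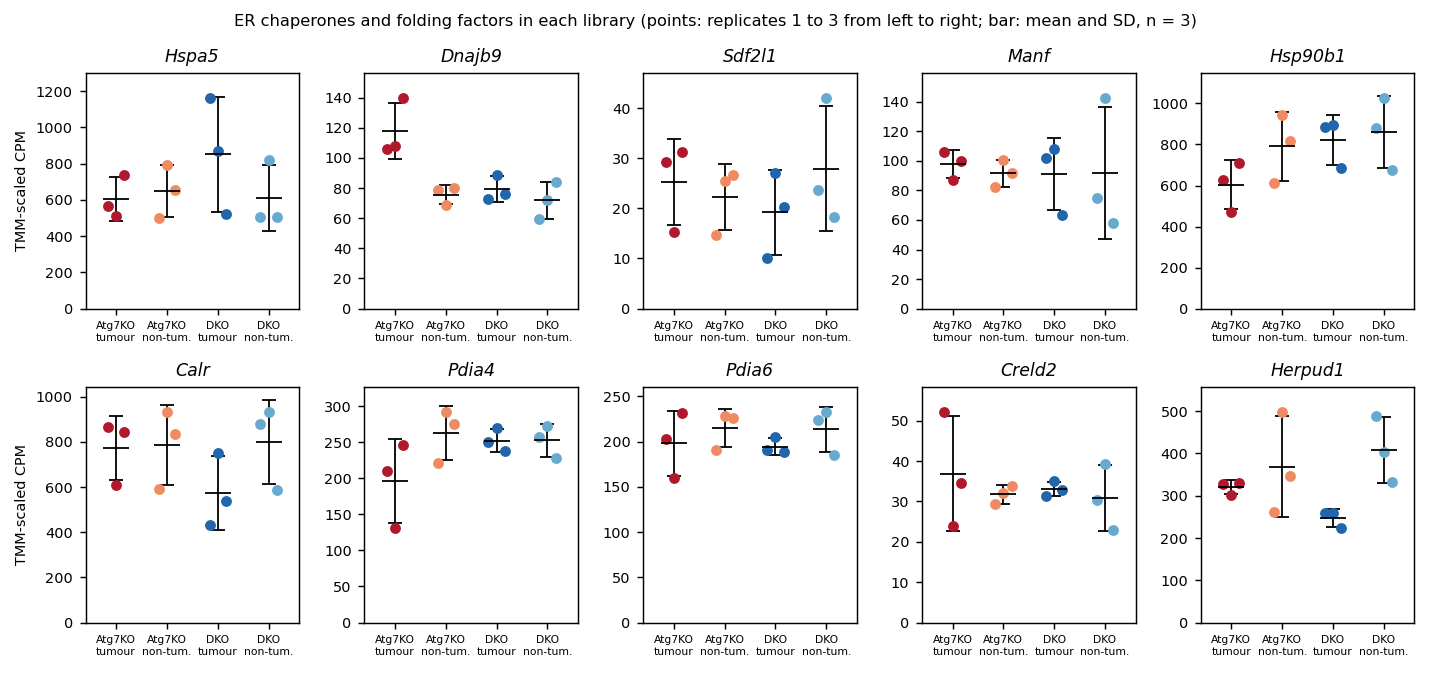
TMM-scaled CPM of each of the 10 genes in the 12 libraries, from 0, with Atg7KO tumour, Atg7KO non-tumour, DKO tumour and DKO non-tumour from left to right; points are libraries, and the bars are the mean and SD of n = 3. Dnajb9 in Atg7KO tumours (106 to 139 CPM) lies above all other libraries, Herpud1 in DKO tumours (224 to 260 CPM) lies below all other libraries, and the first DKO tumour stands out in Hspa5 at 1159 CPM.

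In tumours of DKO livers, Herpud1 (NM_022331, mm10 chromosome 8, 94386500 to 94395358, plus strand) was the only member whose libraries separated between the tissues. It had 260, 259 and 224 CPM in DKO tumours, against 488, 403 and 333 CPM in DKO non-tumour livers, so every tumour library was below every non-tumour library. The log2 fold change was -0.72 (SE 0.25, 95% interval -1.27 to -0.18), with an unadjusted p of 0.0139 and an adjusted p of 0.141 by edgeR. With a length offset it was -0.48, with an adjusted p of 0.415, and over all alternatives it stayed between -0.85 and -0.48 with adjusted p between 0.0592 and 0.461, the lowest being that of DESeq2. No member was called by edgeR, against 0% of all genes tested, where 3251 genes had an unadjusted p under 0.05 and DESeq2 called 1087. Without the third DKO non-tumour library edgeR called 597 genes, 0 of them members. That library and the third DKO tumour were the most alike pair of libraries in the series, with a Spearman correlation of 0.9858. The part of this likeness in the DKO tumour values was not tested. Separation upward was seen for 13.2% of all genes tested and 0 of the 10 members, and separation downward for 13.8% and 1 member. An unadjusted p under 0.05 by edgeR was seen for 22.5% of all genes tested and for 1 of the 10 members. Neither share of the members was above that of all genes. The median log2 fold change of the set was -0.04, beside 0.01 for all genes tested, with 3 members above 0 and 7 below.

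Hspa5 (NM_001163434, mm10 chromosome 2, 34772090 to 34776529, plus strand) gave the largest positive value of the set in DKO tumours, with tumour libraries that differed widely. BiP RNA stood at 1159, 870 and 521 CPM in DKO tumours, against 508, 822 and 507 CPM in DKO non-tumour livers. The first tumour library was the highest of all 12, the second also lay above all 3 non-tumour libraries, and the third lay at the level of the low non-tumour livers. The log2 fold change of 0.47 (SE 0.33, 95% interval -0.25 to 1.2, adjusted p = 0.416 by edgeR) was 0.18 (SE 0.34, adjusted p = 0.835) without the first tumour, 0.74 (adjusted p = 0.207) without the third and 0.77 (adjusted p = 0.407) without the second non-tumour library. The first DKO tumour, highest for Hspa5, was the lowest of all 12 libraries for Calr and for Sdf2l1. Calr had 431, 750 and 539 CPM in DKO tumours, against 881, 930 and 587 CPM in DKO non-tumour livers. Its log2 fold change was -0.48 (SE 0.30, adjusted p = 0.353 by edgeR). That value was -0.31 (SE 0.32) without the first tumour, -0.72 without the second tumour and -0.26 (adjusted p = 0.698) with a length offset. Sdf2l1 had 10.1, 27.1 and 20.3 CPM in the tumours and 23.7, 41.9 and 18.2 CPM in the non-tumour livers. Its log2 fold change of -0.54 (SE 0.42, adjusted p = 0.469 by edgeR) was -0.24 (SE 0.41) without the first tumour, -0.87 without the second tumour, -0.10 without the second non-tumour library and -0.05 with a length offset, Sdf2l1 having the shortest transcript of the set at 1108 bases.

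Of the other members in DKO tumours, Hsp90b1 had 886, 896 and 683 CPM in DKO tumours and 881, 1024 and 675 CPM in DKO non-tumour livers, with the third library low in both (log2 fold change -0.07, SE 0.26). Pdia4 had 251, 269 and 237 CPM in the tumours and 257, 273 and 228 CPM in the non-tumour livers (log2 fold change -0.00, SE 0.24). Pdia6 had 191, 205 and 188 CPM in the tumours and 224, 232 and 186 CPM in the non-tumour livers (log2 fold change -0.14, SE 0.19). Both isomerases thus overlapped between the tissues, and the 95% interval of Pdia6, -0.56 to 0.28, lay well within a 2-fold change. Dnajb9, the member highest in Atg7KO tumours, had 73.0, 88.8 and 76.2 CPM in DKO tumours and 59.6, 72.0 and 83.7 CPM in DKO non-tumour livers, for a log2 fold change of 0.14 (SE 0.18, adjusted p = 0.673 by edgeR), and 0.37 (adjusted p = 0.416) with a length offset. Creld2 had 31.4, 35 and 32.9 CPM in the tumours and 30.4, 39.3 and 23.0 CPM in the non-tumour livers (log2 fold change 0.10, SE 0.27), and with a length offset the value was 0.51 (adjusted p = 0.359). Manf had 102, 108 and 63.3 CPM in the tumours and 74.9, 142 and 58.1 CPM in the non-tumour livers (log2 fold change -0.01, SE 0.31, and 0.16 with a length offset). For 6 of the 10 members the 95% interval lay within a 2-fold change, and the outermost bounds were 2.29-fold up for Hspa5 and 0.363-fold for Sdf2l1.

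Between DKO and Atg7KO non-tumour livers, no member was called by edgeR, against 0.0554% of all genes tested (8 genes), no member had an unadjusted p under 0.05, and no member separated, against 11.6% of all genes higher and 12.2% lower in all 3 DKO libraries. The log2 fold changes ran from -0.08 for Hspa5 to 0.32 for Sdf2l1, with a median of -0.00 beside -0.05 for all genes tested, and the lowest adjusted p was 0.740. The intervals of 9 of the 10 members lay within a 2-fold change; Sdf2l1, with a 95% interval of -0.60 to 1.24, was the exception. With a length offset Sdf2l1 gave -0.13 (adjusted p = 0.942), Creld2 -0.36 (adjusted p = 0.664) and Dnajb9 -0.22 (adjusted p = 0.751), and the median of the set was -0.12.

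In tumours, DKO stood below Atg7KO for the 2 members singled out above. Dnajb9 was singled out in these same Atg7KO tumours and Herpud1 in these same DKO tumours, so this is no independent result. Dnajb9 averaged 79.3 ± 8.35 CPM in DKO tumours and 118 ± 18.7 CPM in Atg7KO tumours (SD, n = 3 each), a log2 fold change of -0.57 (SE 0.18, 95% interval -0.97 to -0.17, unadjusted p = 0.00927, adjusted p = 0.198 by edgeR). Herpud1 averaged 247 ± 20.6 CPM in DKO tumours and 320 ± 16.1 CPM in Atg7KO tumours, a log2 fold change of -0.37 (SE 0.25, 95% interval -0.92 to 0.17, adjusted p = 0.459 by edgeR). Both separated downward, as did 10.3% of all genes tested, while 0 members separated upward, against 9.95%. With a length offset the values were -0.43 for Dnajb9 (adjusted p = 0.348) and -0.22 for Herpud1 (adjusted p = 0.730). Hspa5 (log2 fold change 0.49, SE 0.33), Hsp90b1 (0.45, SE 0.27) and Pdia4 (0.36, SE 0.24) lay above 0 and Calr (-0.43, SE 0.30) and Sdf2l1 (-0.40, SE 0.42) below, all with adjusted p of 0.407 or more by edgeR. No member was called by edgeR in this comparison, against 0.0485% of all genes tested (7 genes, or 30 without the third DKO tumour, 0 of them members), and the median of the set was -0.13 beside 0.00 for all genes. With a length offset Calr gave -0.30, Sdf2l1 -0.13 and Creld2, at -0.16 without it, 0.10, and the median of the set was 0.06.

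Whether the tumour effect itself differed between DKO and Atg7KO was tested as an interaction. No member was called by edgeR, nor was any gene (0% of those tested), though 2582 genes had an unadjusted p under 0.05 and DESeq2 called 369 genes, none of them a member. Dnajb9 had the lowest p of the set, with an interaction of -0.49 on the log2 scale (SE 0.26, 95% interval -1.06 to 0.07, unadjusted p = 0.0814, adjusted p = 0.345 by edgeR), and Herpud1 gave -0.52 (SE 0.35, adjusted p = 0.463). With a length offset they gave -0.20 (adjusted p = 0.883) for Dnajb9 and -0.20 (adjusted p = 0.922) for Herpud1. The data therefore do not separate a Dnajb9 difference that is particular to Atg7KO tumours from one shared by both genotypes. Sdf2l1 gave -0.72 (SE 0.59), and -0.00 with a length offset, while Creld2 gave -0.12, and 0.46 (adjusted p = 0.754) with it. Hspa5 gave 0.57 (SE 0.47), Pdia4 0.42 (SE 0.33) and Hsp90b1 0.32 (SE 0.37). Calr gave -0.46 (SE 0.42), Manf -0.10 (SE 0.43) and Pdia6 -0.02 (SE 0.27). Only 2 of the 10 intervals lay within a 2-fold difference, so for most members a 2-fold difference between the tumour effects was not excluded at this replication.

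**Figure D3:**
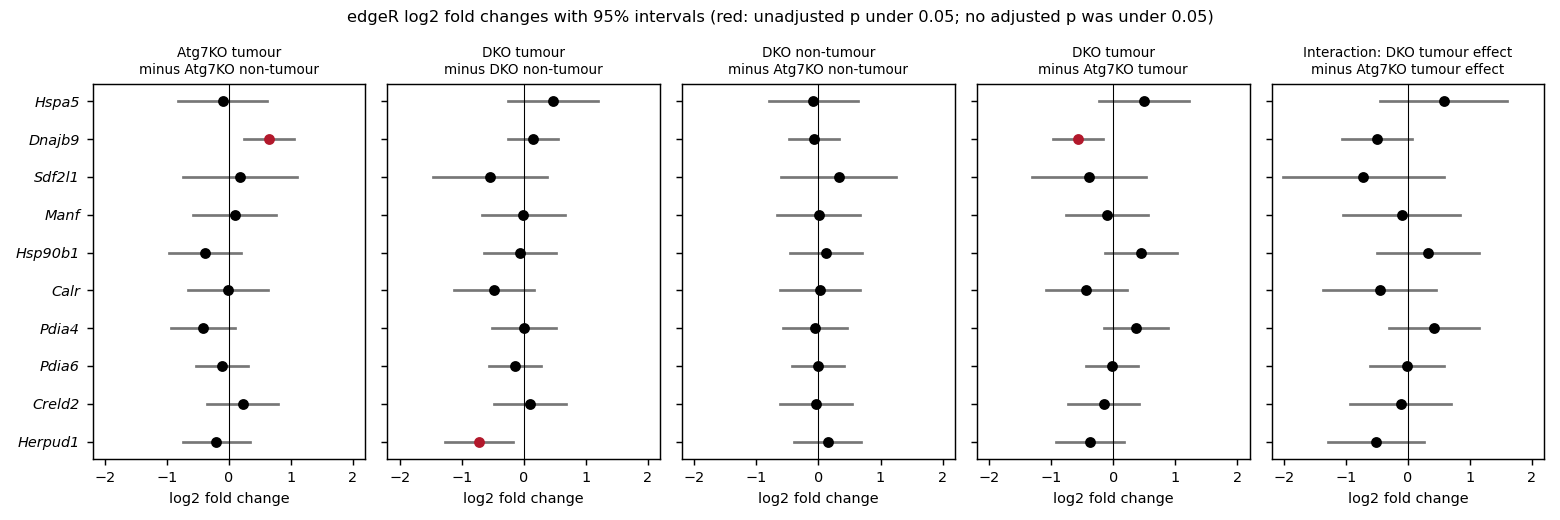
edgeR log2 fold changes of the 10 genes (points) with 95% intervals (lines) in the 5 comparisons, with red for an unadjusted p under 0.05. The red points are Dnajb9 at 0.64 in Atg7KO tumours, Herpud1 at -0.72 in DKO tumours and Dnajb9 at -0.57 in DKO against Atg7KO tumours, and all other intervals reach across 0.

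The median within-group SD of the members was 0.317 on the log2 scale, against 0.375 over all genes tested, and Hspa5 (0.414), Manf (0.407) and Sdf2l1 lay above the median of all genes. Pdia6 was the steadiest, its highest library 1.45 times its lowest and its within-group SD 0.179. Sdf2l1 varied most, 4.14-fold between its extremes, with a within-group SD of 0.602. Summed over the 10 genes, the TMM-scaled levels ran from 2421 CPM in the second Atg7KO tumour to 3981 CPM in the second DKO non-tumour library. The second DKO non-tumour library, also the shallowest, was the highest of the 12 for 5 members (Hsp90b1, Pdia6, Calr, Sdf2l1 and Manf), and the second Atg7KO tumour was the lowest for 3 (Hsp90b1, Pdia4 and Pdia6). The first Atg7KO non-tumour library lay below the 12-library mean for all 10 members, and the second DKO tumour above it for 9.

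Over the 12 libraries, Pdia6 followed the mean of the other 9 members most closely, with a Pearson r of 0.88, and Sdf2l1, Calr, Manf and Hsp90b1 gave 0.73, 0.73, 0.65 and 0.65. Hspa5 gave 0.40, Herpud1 0.43 and Dnajb9 -0.17. These values describe libraries that differ in depth and tissue, and carry no test. The genes outside the set whose log2 CPM was most like its mean over the 12 libraries were Ier2 (r = 0.91), Junb (0.89) and Nab2 (0.88), all immediate early response genes or their regulators, then Vnn3, Serpinf2, Dpagt1, Cd300e, Qsox1, Cfp and Fcna (0.86 to 0.84). Of the other genes of the ER pathways listed, Dnajc3 and Spcs2 were among the 100 most alike. The median r was 0.34 over 24 other ER folding factors and -0.33 over 17 genes of the PERK, ATF4 and CHOP branch, beside -0.02 over all genes tested.

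**Figure D4:**
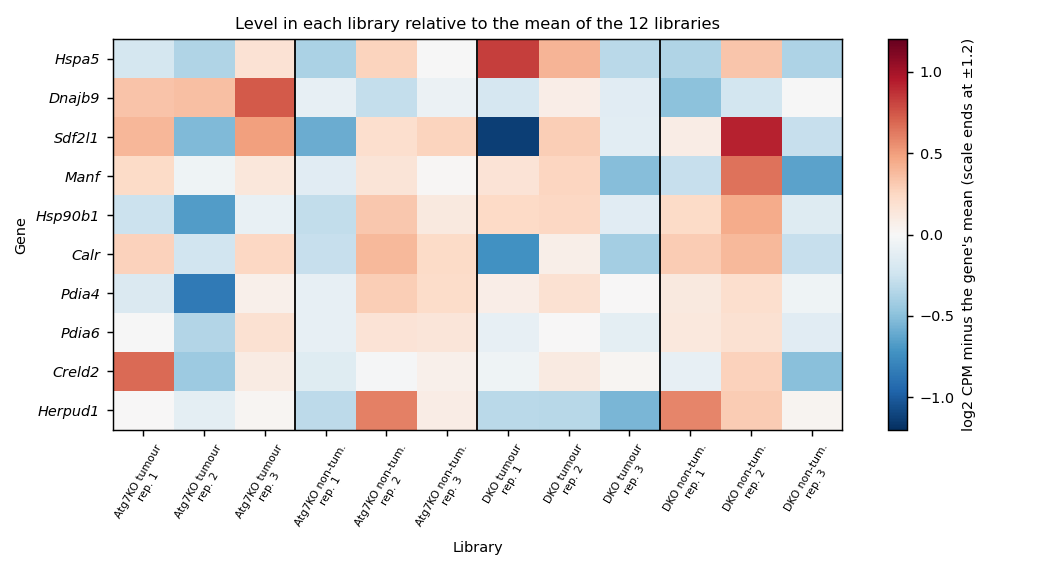
log2 CPM of each of the 10 genes in each of the 12 libraries, relative to the mean of the gene, with red above and blue below it and black lines between the 4 groups. The second DKO non-tumour library is above the mean for 9 genes and the second Atg7KO tumour for 1, while the first DKO tumour is highest for Hspa5 and lowest for Calr and Sdf2l1.

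Ratios within a library do not depend on how libraries are scaled. They can still carry the relation to gene length, as Hspa5 has 2616 bases, against 1108 for Sdf2l1 and 1871 for Herpud1. The part of length in these ratios was not tested. Those given here were chosen after the values were seen, so they are descriptions with no test. Per kilobase, Hspa5 was 2.0 times Calr in the first DKO tumour, 0.861 and 0.719 times in the other DKO tumours, and 0.428 to 0.656 times in the 9 libraries of the other groups. Hspa5 over Sdf2l1 was 48.5 in the first DKO tumour and 8.17 to 14.5 in the other 11 libraries. Hspa5 over Hsp90b1 was 1.38, 1.02 and 0.805 in DKO tumours, against 0.608, 0.846 and 0.793 in DKO non-tumour livers, which overlapped. In Atg7KO it was 0.947, 1.14 and 1.10 in tumours, against 0.864, 0.884 and 0.845 in non-tumour livers, with no overlap. Hspa5 over Herpud1 was 3.19, 2.41 and 1.67 in DKO tumours, against 0.744, 1.46 and 1.09 in DKO non-tumour livers, and did not overlap between them. In Atg7KO the same ratio overlapped, at 1.23, 1.21 and 1.60 in tumours and 1.37, 1.14 and 1.35 in non-tumour livers. Dnajb9 over Herpud1 did not overlap between the tissues in either genotype. It was 0.325, 0.359 and 0.422 in Atg7KO tumours, against 0.30, 0.138 and 0.232 in Atg7KO non-tumour livers. In DKO it was 0.282, 0.344 and 0.342 in tumours, against 0.122, 0.179 and 0.252 in non-tumour livers.

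The rest of the ER stress pathway was read from 6 further lists of genes, in which edgeR called no gene in any comparison. The values of these lists are given without a length offset. Over all genes tested, log2 fold changes followed gene length with Spearman's rho of -0.25 in Atg7KO tumours and 0.49 in DKO tumours. The part of gene length in the values of the lists was not tested. Of 24 other ER folding factors tested, 18 lay above 0 in Atg7KO tumours (median log2 fold change 0.11) and 8 in DKO tumours (median -0.13). P4hb, a disulfide isomerase and the most abundant gene of that list per kilobase, averaged 1706 ± 93.1 CPM in Atg7KO tumours and 1627 ± 262 CPM in Atg7KO non-tumour livers. Dnajc10, a J-domain reductase that helps degrade misfolded proteins, averaged 173 ± 52.1 CPM in Atg7KO tumours and 64.5 ± 14.6 CPM in Atg7KO non-tumour livers, and 140 ± 26.4 CPM in DKO tumours, against 72.6 ± 22.9 CPM in DKO non-tumour livers. Its log2 fold changes were 1.42 (SE 0.30, adjusted p = 0.112) and 0.94 (SE 0.30, adjusted p = 0.131) by edgeR, larger than that of any member, and the libraries did not overlap in either genotype. Uggt1, the sensor that returns misfolded glycoproteins to calreticulin, averaged 87.9 ± 6.69 CPM in DKO tumours and 58.4 ± 4.60 CPM in DKO non-tumour livers (log2 fold change 0.59, SE 0.15, adjusted p = 0.117 by edgeR).

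Of the sensors and transcription factors of the response, 7 of 10 lay above 0 in both tumour comparisons. Xbp1, the factor downstream of IRE1 and the most abundant of them per kilobase, averaged 200 ± 26.1 CPM in Atg7KO tumours and 217 ± 40.5 CPM in Atg7KO non-tumour livers, and 205 ± 78.0 CPM in DKO tumours and 287 ± 53.9 CPM in DKO non-tumour livers. These are gene counts, which do not tell its spliced form from its unspliced one. Creb3l2, a factor cleaved at the Golgi as ATF6 is, averaged 30.2 ± 9.09 CPM in DKO tumours and 11.8 ± 2.16 CPM in DKO non-tumour livers (log2 fold change 1.35, SE 0.25, adjusted p = 0.117 by edgeR). Mbtps1, the protease that cleaves ATF6, had the lowest p of the list in Atg7KO tumours, with a log2 fold change of -0.22 and an adjusted p of 0.525.

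The 20 genes of ER-associated degradation, the pathway of Herpud1, were mixed, with 13 above 0 in Atg7KO tumours and 12 in DKO tumours. Sel1l, the adaptor of the ligase complex that Herpud1 joins, averaged 83.1 ± 8.57 CPM in Atg7KO tumours and 145 ± 36.2 CPM in Atg7KO non-tumour livers (log2 fold change -0.81, SE 0.23, adjusted p = 0.168 by edgeR). In DKO it averaged 150 ± 34.5 CPM in tumours and 115 ± 15.3 CPM in non-tumour livers (log2 fold change 0.39, SE 0.23). Edem3, a mannosidase that marks glycoproteins for degradation, averaged 52.8 ± 8.5 CPM in DKO tumours and 28.7 ± 9.10 CPM in DKO non-tumour livers (log2 fold change 0.88, SE 0.28, adjusted p = 0.131). Selk, the most abundant of the list per kilobase, gave 0.83 (SE 0.31) in Atg7KO tumours and -0.77 (SE 0.31) in DKO tumours.

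The PERK, ATF4 and CHOP branch showed the largest shift of the 7 lists, with 15 of 17 genes above 0 in Atg7KO tumours (88.2%, beside 49.7% of all genes tested) and 15 of 17 in DKO tumours (88.2%, beside 50.9%). The medians were 0.73 and 0.60 on the log2 scale, against -0.06 and -0.04 for the 10 ER chaperones and folding factors. Psat1, an ATF4 target in serine synthesis, averaged 47.2 ± 8.48 CPM in Atg7KO tumours and 5.80 ± 2.68 CPM in Atg7KO non-tumour livers, a log2 fold change of 3.02 (SE 0.47, adjusted p = 0.0845 by edgeR). In DKO it averaged 33.2 ± 16.1 CPM in tumours and 5.62 ± 1.76 CPM in non-tumour livers, with a log2 fold change of 2.57 (SE 0.47, adjusted p = 0.117). Atf4 itself, the most abundant of the list per kilobase, averaged 134 ± 9.02 CPM in Atg7KO tumours and 91.3 ± 3.31 CPM in Atg7KO non-tumour livers, and 133 ± 66.1 CPM in DKO tumours and 116 ± 30.7 CPM in DKO non-tumour livers. Its DKO tumours ran from 85.1 to 208 CPM with a median of 105 CPM, against 95.2 to 151 CPM in DKO non-tumour livers, and overlapped them. No gene of the branch passed the threshold, and the 2 sets were not tested against each other. The branch is a list of genes by name, and the part of PERK itself in these values was not tested.

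Components of translocation into the ER lay above 0 for 19 of 22 genes in Atg7KO tumours (median 0.36) and 9 of 22 in DKO tumours (median -0.10). The part of gene length in these medians of opposite sign was not tested. Ssr3, part of the translocon-associated complex and the most abundant of the list per kilobase, averaged 568 ± 61.8 CPM in Atg7KO tumours and 362 ± 37.2 CPM in Atg7KO non-tumour livers (log2 fold change 0.65, SE 0.21, adjusted p = 0.188 by edgeR). Sec61b, a subunit of the channel, gave -0.80 (SE 0.26, adjusted p = 0.131) in DKO tumours. Cytosolic and mitochondrial chaperones lay above 0 for 14 of 16 genes in both tumour comparisons, with medians of 0.35 and 0.25. Hsp90ab1, the constitutive cytosolic HSP90 and the most abundant of them per kilobase, averaged 2636 ± 1014 CPM in Atg7KO tumours and 1519 ± 100 CPM in Atg7KO non-tumour livers (log2 fold change 0.79, SE 0.32, adjusted p = 0.249 by edgeR). Hspe1, the mitochondrial co-chaperonin, gave 0.78 (SE 0.30, adjusted p = 0.232) in Atg7KO tumours, and Hspa1b, a stress-induced cytosolic HSP70, 2.26 (SE 0.83, adjusted p = 0.155) in DKO tumours. Hspa1b had 2.88, 3.5 and 30.0 CPM in the DKO tumours, in order of level, against 1.84 to 3.31 CPM in DKO non-tumour livers, so 1 tumour library was far above the rest.

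**Figure D5:**
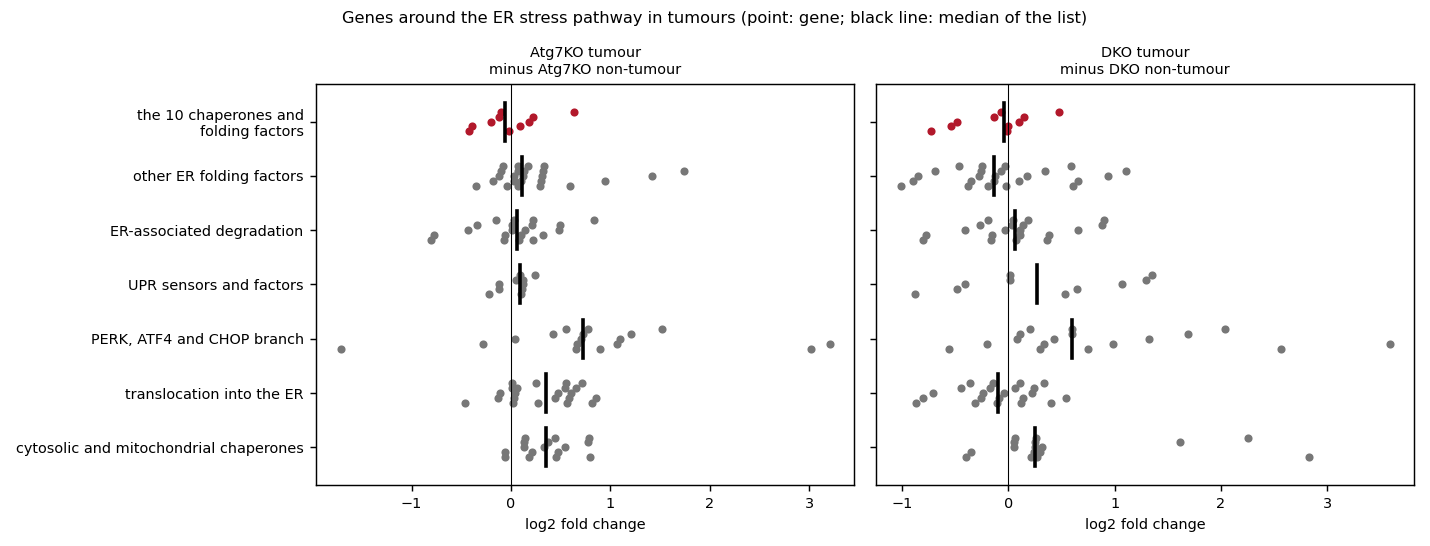
edgeR log2 fold changes of the genes of 7 lists in tumours of each genotype (points; the 10 chaperones and folding factors in red), with a black line at the median of each list. The red points centre on -0.06 and -0.04, whereas the PERK, ATF4 and CHOP branch centres on 0.73 and 0.60, and no point passed an adjusted p of 0.05.

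Markers of other cell types are given because plasma cells, which hold much ER, also express these genes, and in bulk tissue fewer cells of a type and less RNA per cell cannot be told apart. The 10 plasma and B cell markers summed to 242 to 473 CPM in Atg7KO tumours and 275 to 497 CPM in Atg7KO non-tumour livers. In DKO they summed to 253 to 314 CPM in tumours and 305 to 487 CPM in non-tumour livers. Sdc1 was the most abundant gene of that list per kilobase, and the lowest marker of a library had 1 to 7 reads. The part of plasma cells in the reads of Sdc1, and so in these sums, was not tested. No marker of that list, which shares Derl3 with the list of ER-associated degradation, was at 0 in any library, 9 of the 10 were tested, and 0 and 1 of the 9 lay above 0 in tumours of Atg7KO and of DKO. No marker of the 8 cell type lists was called by edgeR in any comparison. In Atg7KO tumours the median log2 fold changes were -0.26 for hepatocyte, -0.70 for plasma and B cell, -0.15 for macrophage, -0.16 for endothelial, -0.95 for stellate, -1.17 for bile duct and -0.21 for T and NK cell markers. In DKO tumours they were -0.61, -1.03, -0.79, -0.00, 0.19, 0.31 and -0.49 in the same order, and of 6 pancreatic acinar markers 1, Cela1, was tested. The bile duct sums were 1190, 6586 and 531 CPM in Atg7KO tumours, against 1258, 490 and 1265 CPM in Atg7KO non-tumour livers, and the second tumour was far above the rest. The part of these shifts in the values of the 10 genes, Herpud1 in DKO tumours among them, was not tested. Hspa5 overlaps Rabepk, Pdia6 overlaps Atp6v1c2 and Pdia4 overlaps Mir704 in the RefSeq annotation, and without a stated strand setting the reads of such neighbours cannot be told apart; the other 7 members overlap no gene of that table.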

How the data were processed

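The values the authors deposited are unnormalised read counts, with 12 libraries as columns and 24421 RefSeq genes as rows, beside gene lengths and positions. The submitters' processing notes name mm10 as the build and, as tools, STAR 2.5.3a, featureCounts, Subread 1.5.3, bcl2fastq and edgeR 3.20.8; the strand setting and library kit are not given in the sources used here. The filterByExpr rule, at a minimum count of 10 and a minimum total of 15, kept 14443 genes, whose counts were scaled with TMM factors and compared in R 4.3.3 by the quasi-likelihood F test of edgeR 4.0.16, in 1 fit of 12 libraries with a term per group. Tests were two-sided, p was adjusted by Benjamini-Hochberg over all genes tested within each of 5 comparisons, and calls were made at an adjusted p under 0.05. Intervals of 95% come from the SE and the moderated degrees of freedom. Totals ran from 18292190 to 32354958 reads, and the common biological coefficient of variation was 0.3647. The most alike pair of libraries, the third DKO tumour and the third DKO non-tumour library, had a Spearman correlation of 0.9858. None was taken for a copy. With 3 libraries a side, 0.1 is the smallest p an exact permutation test allows, and that test was left out. The procedure was checked on simulated counts. Alternatives were RLE factors, no filter, a per-library offset for gene length, only the libraries compared, a replicate block, DESeq2 1.42.0, limma 3.58.1 (voom with quality weights) and leaving out each library. Promoter sequences are from RefSeq, GRCm38.p6. Figures were drawn with matplotlib 3.10.9.

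The 10 genes, the 6 other gene lists and the 8 marker lists were chosen with earlier results of these data known. All 10 were named in both tumour comparisons and in the interaction, and some of them in the other comparisons. Of each other gene list, the gene with the highest mean level per kilobase and that with the lowest p in each tumour comparison were named. The marker lists were given mainly as sums and medians. Genes of like pattern were the 10 with the highest Pearson correlation, over 12 libraries, of log2 CPM (prior count 2) with the mean of the standardised values of the members. Genes so named may have values in either tumour comparison.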

Additional observations from a re-analysis of the deposited data

How the results depend on the processing

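The count of members called by edgeR was 0 under every alternative and with every library left out, in all 5 comparisons; DESeq2 called 1, Dnajb9 in Atg7KO tumours. The value of Dnajb9 in Atg7KO tumours kept its sign under every alternative (0.51 to 0.71), as did that of Herpud1 in DKO tumours (-0.85 to -0.48). Over all genes, edgeR called 0, 0, 8, 7 and 0 in Atg7KO tumours, DKO tumours, non-tumour DKO against Atg7KO, tumour DKO against Atg7KO and the interaction. DESeq2 called 611, 1087, 195, 537 and 369 in that order. Limma voom called 339, 0, 563, 37 and 0. The fit of only the libraries compared called 1 gene in DKO tumours. In tumour DKO against Atg7KO, RLE factors gave 12, no filter 11 and the length offset 13. With a replicate block, alone or with the length offset, edgeR called 3 genes in Atg7KO tumours and 1 in the interaction. Same-numbered tumour and non-tumour libraries correlated in their deviations at 0.016, 0.056 and 0.311 in Atg7KO and 0.074, 0.332 and 0.024 in DKO. Differently numbered pairs gave -0.216 to 0.114 in Atg7KO and -0.246 to 0.161 in DKO, so the highest value of each genotype came from a same-numbered pair. Whether same-numbered libraries share an animal is not stated, and the block was kept as an alternative to the main fit. It called no member. Leaving out a library gave 0 to 3 genes in Atg7KO tumours (3 without the second Atg7KO non-tumour library), 0 to 597 in DKO tumours (597 without the third DKO non-tumour library) and 7 to 30 in tumour DKO against Atg7KO (30 without the third DKO tumour). The cause of these differences was not tested.

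The signs of some members turned with the setting. With the length offset, Sdf2l1 gave -0.13 in non-tumour DKO against Atg7KO, where the value was 0.32, and Creld2 gave 0.10 in tumour DKO against Atg7KO and 0.46 in the interaction, where the values were -0.16 and -0.12. In Atg7KO tumours voom gave 0.0547 for Hspa5 and 0.0534 for Calr. There the length offset gave -0.0495 for Sdf2l1, and -0.0363 with the replicate block. In DKO tumours the length offset gave 0.0864 for Pdia4, 0.0367 for Pdia6 and 0.164 for Manf. With the block beside it, these were 0.086, 0.0374 and 0.207. The block alone gave 0.0009 for Pdia4 and 0.0583 for Manf, no filter 0.0068 and 0.0034. For Pdia4, only the libraries compared gave 0.0043 and DESeq2 0.0001. The median of the members in the interaction was -0.11, against 0.17 with the length offset and 0.19 with the block added. With a library left out, the Atg7KO tumour values ran from -0.26 to 0.0647 for Hspa5, -0.23 to 0.0099 for Pdia6, -0.20 to 0.12 for Calr, -0.0529 to 0.43 for Sdf2l1, -0.11 to 0.45 for Creld2 and -0.40 to 0.0724 for Herpud1. The DKO tumour values ran from -0.21 to 0.11 for Hsp90b1, -0.0695 to 0.0833 for Pdia4, -0.0733 to 0.34 for Creld2 and -0.25 to 0.48 for Manf, and the median of the members from -0.22 to 0.0941. In non-tumour DKO against Atg7KO that median ran from -0.10 to 0.17. The 95% intervals in DKO tumours, which for Sdf2l1 and Hspa5 among others reach past a 2-fold change, do not exclude such changes. They hold for 1 gene at a time, whereas calls were adjusted over all genes tested. The intervals therefore do not set which changes 3 libraries a group could call.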
